A study of Mus musculus with 12 samples.

Results

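High-fat feeding was compared with a normal diet in pancreatic islets of wild type (WT) mice. The 3 arrays labelled WT on the high-fat diet were set against the 3 labelled WT on the normal diet, which makes 6 of the 12 arrays of the series, and all genes measured on them were read. The mice were C57BL6. The other 6 arrays came from C57BL6 mice lacking Sgpp2 (Sgpp2-/-, written KO), the gene of sphingosine-1-phosphate phosphatase 2, on the same diets with 3 arrays each. They entered here through a shared estimate of the spread and as values set beside those of WT. The labels give neither age, sex, the make-up and length of the diets, nor how many animals an array stands for, and they do not say that arrays came from separate animals. The p-values therefore speak only of how far these samples spread, and that spread may be technical. The samples carry no tissue label, and islets are named in the title of the series.

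Islets are small clusters of endocrine cells in which insulin-producing β-cells predominate in the mouse. Feeding a high-fat diet makes tissues respond less to insulin, and β-cells are known to answer with more insulin synthesis and, over time, with growth of the β-cell mass. Making more proinsulin loads the endoplasmic reticulum, whose stress response raises chaperones and degradation factors and, when prolonged, factors linked to cell loss. The comparison asks which transcripts differ with the diet when Sgpp2 is intact.

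The unit of all values is log2 of the signal after robust multi-array averaging (RMA), so that a difference of 1 is a doubling. Each gene was read from 1 probe set, the one with the highest mean over the 12 arrays, and 15237 of 18193 genes were tested, namely those brighter than a log2 value of 5 on 3 or more arrays. The hormones were bright on each of the 6 arrays: Ins2 (insulin) lay between 14.50 and 14.71, Gcg (glucagon) between 14.33 and 14.53, Sst (somatostatin) between 14.23 and 14.43, and Ppy (pancreatic polypeptide) between 14.19 and 14.38. Digestive enzymes of the acinar cells that surround islets were bright too, with Ctrb1 (chymotrypsinogen) between 14.44 and 14.70. Values this close to the top of the scale can understate differences. Arrays of the same group correlated with r between 0.9939 and 0.9960. WT high-fat array 2 stood apart on the first principal component (27.1% of the variance), where it scored 6.5, on the side of the KO arrays, while the other WT arrays scored between −21.1 and −7.5. WT high-fat array 3 had a 3′ minus 5′ difference of 1.71 for the Gapdh control probe sets, against 1.10 to 1.20 on the other 5 arrays, and a value of 6.74 for Xist against 5.20 to 5.48, while the Y-linked Kdm5d read 9.36 on it against 9.26 to 9.74. Results were computed with and without each of these arrays.

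Diet changed few genes past the threshold. With limma's moderated test and Benjamini-Hochberg adjustment over all 15237 genes, 12 genes passed an adjusted p of 0.05 (0.0788% of those tested): 3 rose (0.0197%) and 9 fell (0.0591%). They include the secreted regenerating protein Reg2, the steroid sulfate transporter Slc10a6, a Ras activator, a corepressor, a mitochondrial protein and a spindle protein. An unadjusted p under 0.05 was reached by 1695 genes, 595 higher and 1100 lower on the high-fat diet. In 2407 genes (15.8%) the 3 high-fat arrays did not overlap with the 3 normal-diet arrays, and all 12 called genes were among them. The median difference over all genes was −0.02, and 44.6% of genes were higher.

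**Figure D1:**
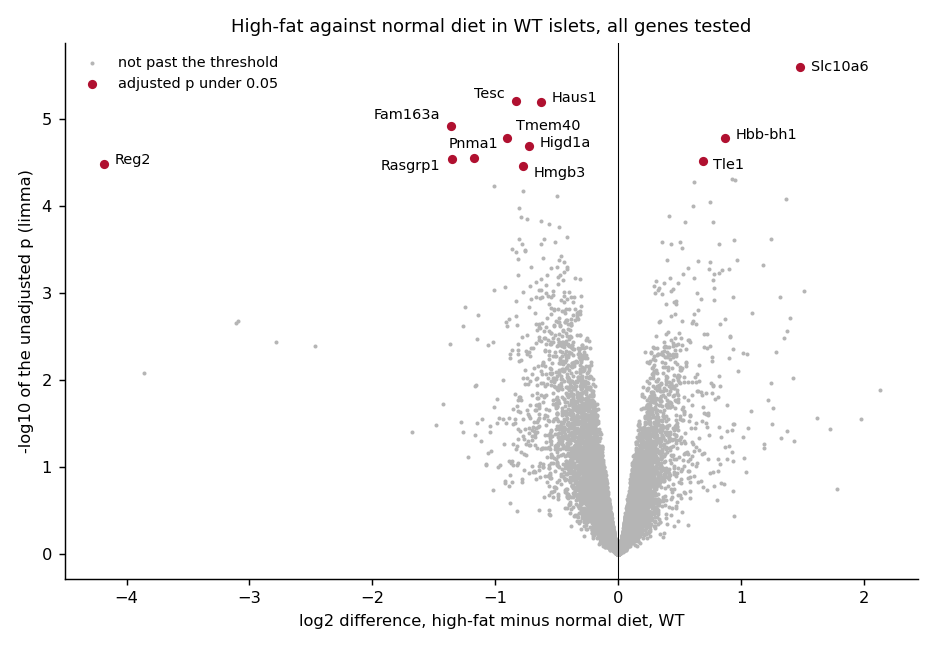
Each point is 1 of 15237 genes, placed by its log2 difference between the high-fat and the normal diet in WT (horizontal axis) and by −log10 of the unadjusted limma p (vertical axis). The 12 genes with an adjusted p under 0.05 are named; Reg2, at −4.19, lies farthest from 0.

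Reg2 showed the largest difference of the 15237 genes. It encodes a small secreted lectin-like protein of the regenerating islet-derived (Reg) family, which was found in regenerating islets and is made in acinar cells and in stressed islets. Its promoter window is printed here because the fall of this gene leads the comparison, with a TATAAA box in capitals, 30 bases before the start (RefSeq, GRCm38.p6, chr6:78404905-78405204, plus strand). Below it stands the window of Reg3b (chr6:78370635-78370934, plus strand), with the capitals marking a TTCNNNGAA site, the spacing that STAT factors bind.
Reg2: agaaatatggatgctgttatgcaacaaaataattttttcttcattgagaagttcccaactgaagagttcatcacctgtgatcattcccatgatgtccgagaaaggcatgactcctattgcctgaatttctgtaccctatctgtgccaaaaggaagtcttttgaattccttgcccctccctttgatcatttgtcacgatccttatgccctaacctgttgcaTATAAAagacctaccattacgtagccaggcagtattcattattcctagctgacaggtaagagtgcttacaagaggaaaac
Reg3b: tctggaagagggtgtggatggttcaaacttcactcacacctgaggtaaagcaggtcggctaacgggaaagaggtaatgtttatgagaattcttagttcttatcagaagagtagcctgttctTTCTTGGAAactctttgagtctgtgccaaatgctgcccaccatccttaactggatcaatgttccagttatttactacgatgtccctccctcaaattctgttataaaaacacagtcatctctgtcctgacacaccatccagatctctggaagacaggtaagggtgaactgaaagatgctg
Reg2 read 12.74, 12.04 and 13.97 on WT normal arrays 1, 2 and 3, and 9.25, 8.12 and 8.83 on WT high-fat arrays 1, 2 and 3. The lowest normal-diet array thus lay well above the highest high-fat array. Reg2 fell by 4.19 on the log2 scale (SE 0.63, 18.2-fold, limma adjusted p = 0.0444, n = 3 per group). Leaving out any 1 of the 6 arrays took its adjusted p over the threshold, to between 0.0554 and 0.151, with the difference between −4.63 and −3.66.

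The other Reg genes were read beside it, since 6 of the 7 members lie in 1 cluster on chromosome 6, with promoter windows from 78370635 (Reg3b) to 78469124 (Reg3g) in GRCm38.p6. Reg3b, a secreted antibacterial lectin induced in pancreatitis, read 10.81, 9.56 and 12.58 on the normal-diet arrays and 8.59, 7.18 and 7.90 on the high-fat arrays. The groups did not overlap, and the difference was −3.10 (SE 0.78, adjusted p = 0.182). Reg3a, a close relative, read 8.63, 6.88 and 10.47 against 5.73, 5.21 and 5.71, a difference of −3.11 (adjusted p = 0.183). Reg1, the founding member of the family, was bright on all arrays, with 13.97, 14.07 and 14.10 on the normal diet and 13.76, 13.39 and 13.55 on the high-fat diet, and differed by −0.48 (SE 0.12, adjusted p = 0.182). The remaining members are named after their values were seen. Reg3d differed by −1.37 and did not overlap between the diets, Reg3g differed by −1.02 with overlapping arrays, and Reg4, near the lower end of the scale at 4.66 to 5.29, differed by 0.03.

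Of the 7 Reg genes, 6 were lower on the high-fat diet, 5 of them without overlap between the groups against 15.8% of all genes, and the median difference of the family was −1.37. WT normal array 3 had the highest value for each of Reg1, Reg2, Reg3a, Reg3b, Reg3d and Reg3g, and without it the family's median was −1.10. WT high-fat array 2 had the lowest value for the same 6 genes. Because these genes are also transcribed in acinar cells, the 14 acinar markers tested are given beside them: 4 were higher, the median was −0.03, and their mean deviation from the 12-array mean ranged from −0.20 to 0.08 on the normal diet and, for the high-fat arrays, from −0.34 to 0.12. WT high-fat array 2 had the lowest acinar value, and without it the acinar median was 0.07. The part of acinar RNA in the Reg values was not tested. In samples of whole islets, fewer cells of a type and less RNA per cell cannot be told apart. TATAAA on either strand stood in the windows of 4 of the 7 Reg genes (Reg1, Reg2, Reg3b and Reg3g) and of 15.7% of 27025 genes with a window, and TTCNNNGAA in 2 (Reg3b and Reg3d) and 9.55%.

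**Figure D2:**
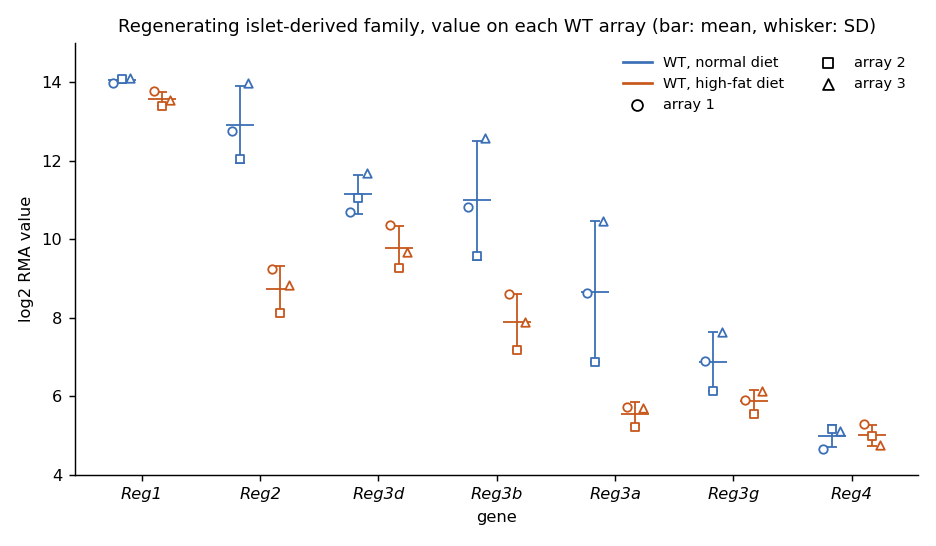
Log2 RMA value (vertical axis) of the 7 Reg genes (horizontal axis) on each WT array, normal diet in blue and high-fat diet in orange, with the group mean as a bar and the SD as a whisker; marker shape gives the array number. The diets do not overlap for Reg1, Reg2, Reg3a, Reg3b and Reg3d, and Reg4 is level.

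The 3 genes that rose were Slc10a6, Hbb-bh1 and Tle1. Slc10a6 encodes a sodium-dependent transporter of sulfated steroids; it read 4.22, 4.68 and 4.28 on the normal diet and 6.09, 5.87 and 5.67 on the high-fat diet. The normal-diet values lie at the lower end of the scale, under the filter, and all high-fat values lie above it. Slc10a6 rose by 1.48 (SE 0.17, 2.80-fold, adjusted p = 0.0325). Tle1, a transcriptional corepressor of the Groucho family, read 9.50, 9.62 and 9.37 against 10.19, 10.22 and 10.14 and rose by 0.69 (SE 0.10, adjusted p = 0.0444). Its other probe set was higher by 0.50. Hbb-bh1, an embryonic β-like globin, read 5.74, 5.63 and 5.93 against 6.56, 6.67 and 6.67 and rose by 0.87 (SE 0.12, adjusted p = 0.0430). Globin genes resemble each other in sequence, and the 2 further probe sets of Hbb-bh1 differed by 0.61 and, under the filter, by −0.11, so this call is uncertain as to the gene.

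Of the other 8 genes that fell, 3 moved more than 2-fold. Rasgrp1, a guanine nucleotide exchange factor that activates Ras upon diacylglycerol, read 7.82, 7.98 and 7.95 on the normal diet and 6.13, 6.81 and 6.75 on the high-fat diet, and fell by 1.36 (SE 0.20, 2.56-fold, adjusted p = 0.0444). Its 3 further probe sets were dim, with means at or under 5.08, and differed by −0.28 to −0.06. Fam163a read 9.86, 9.93 and 10.30 against 8.79, 8.75 and 8.47 and fell by 1.36 (SE 0.18, adjusted p = 0.0430). Pnma1, a neuronal antigen of the paraneoplastic Ma family, read 7.12, 6.25 and 6.62 against 5.54, 5.56 and 5.36 and fell by 1.17 (SE 0.17, adjusted p = 0.0444).

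The remaining 5 genes fell by less than 2-fold. Tesc (tescalcin), a calcium-binding EF-hand protein, read 9.42, 9.47 and 9.61 on the normal diet and 8.80, 8.66 and 8.56 on the high-fat diet and fell by 0.83 (SE 0.10, adjusted p = 0.0325). Its other probe set fell by 0.78 as well, with an adjusted p of 0.0308 when every probe set was tested. Higd1a, a hypoxia-induced protein of the inner mitochondrial membrane, read between 10.56 and 10.87 against 9.94 to 10.09 and fell by 0.73 (adjusted p = 0.0444), and its 2 further probe sets differed by −0.56 and −0.53. Hmgb3, a high mobility group protein of chromatin, fell by 0.78 (adjusted p = 0.0444), and the membrane protein gene Tmem40 by 0.90 (adjusted p = 0.0430). Haus1 encodes a subunit of augmin, the complex that nucleates microtubules within the mitotic spindle; it read between 9.64 and 9.80 against 9.0 to 9.22 and fell by 0.63 (SE 0.08, adjusted p = 0.0325). The further probe sets of Tmem40 differed by −0.28 and −0.27.

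All 12 genes kept their direction in each of the 15 alternative analyses that tested them (Slc10a6 fell under the stricter filter at a log2 value of 6), but the calls did not hold. When the 6 WT arrays were fitted alone, 1 gene passed, and it was none of the 12; with the replicate number as a block, 0 passed. Leaving out 1 array left between 0 and 2 calls, and 10 of the 12 genes were lost whichever of the 6 arrays was left out. Slc10a6 was still called without WT normal array 2 (adjusted p = 0.0178) and without WT high-fat array 3, and Pnma1 without WT normal array 2. Over the alternatives the adjusted p of the 12 genes ranged from 0.0111 to 0.224.

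Genes next in order by p are given as values, since none passed. Higher on the high-fat diet were H3c4, a histone H3 gene with near-identical copies (0.95, adjusted p = 0.0545), Ms4a1, the B-cell antigen CD20 (0.93, adjusted p = 0.0545), Itga10, the integrin α10 subunit (0.61, adjusted p = 0.0545), and Crhbp, which binds corticotropin-releasing hormone (1.36, adjusted p = 0.0667). Ms4a1 lay between 4.57 and 4.72 on the normal diet and between 5.34 and 5.71 on the high-fat diet, and its other probe set, under the filter, differed by 0.08. Of the other 5 B and plasma cell markers tested, 3 were higher and 2 lower: Jchain differed by 0.93 with overlapping arrays and Cd79a, a part of the B-cell receptor, by −0.72 without overlap (adjusted p = 0.467). Trmt9b, related to tRNA methyltransferases, differed by 0.75 and Klra2, of the Ly49 receptor family, by 0.61. The Bambi pseudogene Bambi-ps1, which may share signal with its parent gene, differed by −1.01 (adjusted p = 0.0561).

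Among the functional lists, heat shock proteins and their co-chaperones, mostly cytosolic but with the mitochondrial Hspd1 and Hspe1, had the highest median. Heat shock proteins keep client proteins folded, and their genes are switched on together by the heat shock factor, which binds repeated GAA units. Promoter windows of 2 members are printed because they hold the 3-unit element TTCNNGAANNTTC, in capitals: Hsph1 (RefSeq, GRCm38.p6, chr5:149636266-149636565, minus strand), which encodes the HSP110 nucleotide exchange factor, and Chordc1 (chr9:18292017-18292316, plus strand), which encodes an HSP90 co-chaperone and holds 3 overlapping matches.
Hsph1: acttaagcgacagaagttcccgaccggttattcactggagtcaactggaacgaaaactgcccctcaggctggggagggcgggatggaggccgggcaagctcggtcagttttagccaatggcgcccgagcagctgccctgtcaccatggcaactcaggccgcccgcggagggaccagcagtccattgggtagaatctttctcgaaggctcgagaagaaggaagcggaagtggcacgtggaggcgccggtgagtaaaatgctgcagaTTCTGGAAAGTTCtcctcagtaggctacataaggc
Chordc1: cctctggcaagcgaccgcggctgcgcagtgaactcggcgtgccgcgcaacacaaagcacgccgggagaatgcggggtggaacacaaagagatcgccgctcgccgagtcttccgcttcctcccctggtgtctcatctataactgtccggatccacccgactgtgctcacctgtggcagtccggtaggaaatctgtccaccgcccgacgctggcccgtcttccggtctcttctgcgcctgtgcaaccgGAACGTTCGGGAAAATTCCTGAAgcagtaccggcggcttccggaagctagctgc
The element, searched on both strands, stood in the windows of 4 of the 15 list members that have one (Hsph1, Chordc1, Hspd1 and Hspe1) and of 0.662% of all 27025 genes. Hspd1 and Hspe1, the mitochondrial chaperonin pair, lie head to head and share their promoter, so they count as 1 site. A match is a string of letters and not a measured site.

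Hsph1 read 13.26, 13.43 and 13.21 on the normal diet and 13.74, 13.72 and 13.67 on the high-fat diet, without overlap, a difference of 0.41 (SE 0.07, adjusted p = 0.0839). Its second probe set, less bright, read 9.51, 9.73 and 9.15 against 10.77, 10.37 and 10.90; there the difference was 1.21 (SE 0.15), and it passed when every probe set was tested (adjusted p = 0.0308). The mean of both probe sets differed by 0.81 (adjusted p = 0.0155). Chordc1 read 12.21, 12.33 and 11.99 against 12.55, 12.59 and 12.67 and differed by 0.42 (adjusted p = 0.134). Hspa4l, a chaperone of the HSP110 group, differed by 0.52 (adjusted p = 0.109), and Hsp90aa1, the inducible HSP90, by 0.46 (adjusted p = 0.172). In each of these 4 genes all high-fat arrays lay above all normal-diet arrays.

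Over the list, 16 of 18 genes were higher, with a median of 0.44 against −0.02 for all genes. The groups did not overlap in 11 of the 18, against 15.8% of all genes, and at an unadjusted p under 0.05 there were 12 higher genes and 1 lower, Hspa4, against 3.91% and 7.22% of all genes. None of the 18 passed limma's adjusted threshold. The median lay between 0.35 and 0.48 when any 1 of the 6 arrays was left out, WT high-fat array 3 included. The near-identical Hspa1a and Hspa1b, named after their values were seen, differed by 0.90 and 0.60 with overlapping arrays, and a probe for one may read the other. The mean deviation of the list ranged from −0.31 to −0.17 on the WT normal arrays and from 0.03 to 0.32 on the WT high-fat arrays.

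In KO 5 of 18 members were higher on the high-fat diet, with a median of −0.07. On the normal diet the KO arrays lay between 0.06 and 0.12, and on the high-fat diet between −0.11 and 0.04. Hsph1 read between 13.63 and 13.65 on the KO normal arrays and between 13.58 and 13.64 on the KO high-fat arrays. For Hsph1 the diet difference in WT exceeded that in KO by 0.44 (SE 0.10, unadjusted p = 0.00127), which did not pass over all genes (adjusted p = 0.836).

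**Figure D3:**
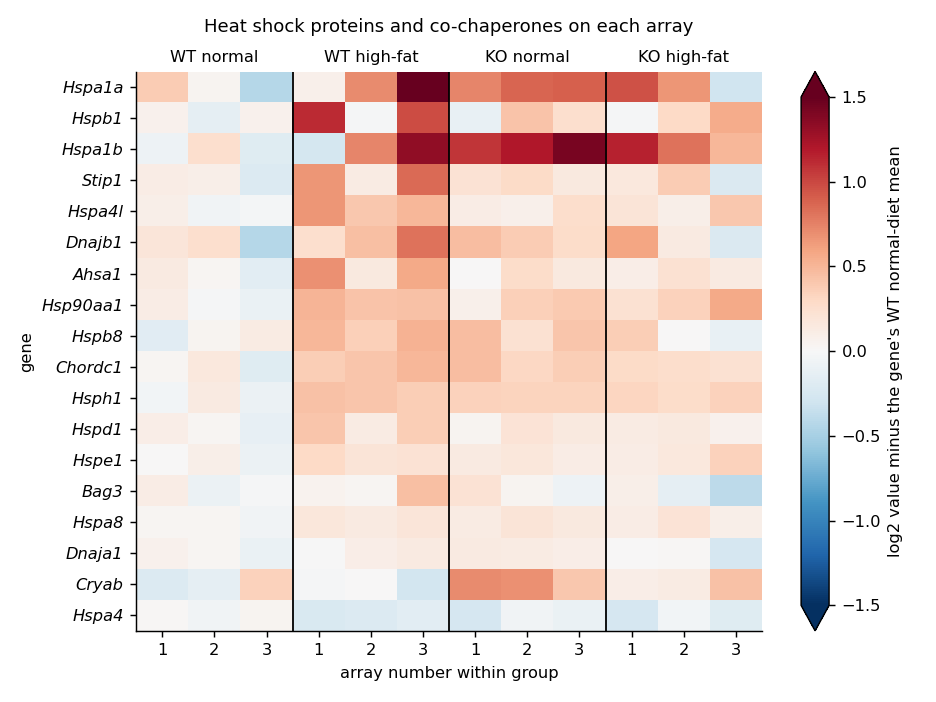
Each square gives the log2 value of 1 heat shock gene (rows) on 1 array (columns, 4 groups of 3) minus that gene's mean on the 3 WT normal arrays, red for higher and blue for lower. In the WT high-fat columns 16 of 18 rows average above 0, and the KO columns of both diets lie nearer to the WT high-fat than to the WT normal ones for Hsph1 and Chordc1.

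The unfolded protein response, which restores folding capacity in the endoplasmic reticulum through the sensors Eif2ak3 (PERK), Ern1 (IRE1) and Atf6, was higher by a small amount. Of 38 genes, 35 were higher on the high-fat diet, against 44.6% of all genes, with a median of 0.12, and 0 passed. At an unadjusted p under 0.05 there were 6 higher genes and 0 lower, against 3.91% and 7.22% of all genes. In 6 of the 38 the groups did not overlap, a share equal to that of all genes (15.8%). Herpud1, a component of the degradation complex, read 12.59, 12.68 and 12.73 on the normal diet and 13.25, 12.96 and 13.30 on the high-fat diet, a difference of 0.51 (SE 0.10, adjusted p = 0.101), and its other probe set differed by 0.46. Eif2ak3 differed by 0.44 (adjusted p = 0.212) and the co-chaperone gene Dnajb9 by 0.20 (adjusted p = 0.286). Trib3, a pseudokinase induced by PERK signalling, differed by 0.83 (adjusted p = 0.284) but overlapped, with 8.80 on WT high-fat array 3 against 8.23 to 8.96 on the normal diet.

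The main luminal chaperones were level. Hspa5 (BiP), named after its values were seen, differed by 0.04 and Hsp90b1 (GRP94) by 0.04. The endoplasmic reticulum stress element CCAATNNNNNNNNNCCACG, on either strand, stood in the windows of 10 of 33 list members and of 0.137% of 27025 genes, and those 10 genes differed by between 0.002 (Calr) and 0.26 (Syvn1). The windows of Hspa5 (RefSeq, GRCm38.p6, chr2:34771840-34772139, plus strand) and of Syvn1, the ubiquitin ligase of the degradation complex (chr19:6046326-6046625, plus strand), are printed because they hold this element, in capitals, while the genes lie near the bottom and at the top of that range.
Hspa5: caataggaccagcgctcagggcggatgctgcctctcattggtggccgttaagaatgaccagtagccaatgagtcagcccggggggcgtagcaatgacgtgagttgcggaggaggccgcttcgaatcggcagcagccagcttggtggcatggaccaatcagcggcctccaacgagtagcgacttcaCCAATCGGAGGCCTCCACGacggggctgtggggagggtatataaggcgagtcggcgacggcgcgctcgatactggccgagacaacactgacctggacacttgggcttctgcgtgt
Syvn1: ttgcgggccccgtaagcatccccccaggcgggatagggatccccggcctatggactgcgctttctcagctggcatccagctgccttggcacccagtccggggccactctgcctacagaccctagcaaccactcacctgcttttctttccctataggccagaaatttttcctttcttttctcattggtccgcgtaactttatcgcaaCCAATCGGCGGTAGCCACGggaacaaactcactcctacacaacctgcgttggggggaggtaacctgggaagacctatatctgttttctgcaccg
Among amino acid transporters and other ATF4 targets, which this response also raises, 17 of 25 genes were higher, 0 passed and the median was 0.10, but it was −0.002 without WT normal array 2. Slc38a2, a neutral amino acid transporter, differed by 0.33 (adjusted p = 0.216) and Phgdh, which opens serine synthesis, by 0.50 (adjusted p = 0.265), both without overlap. They were the only 2 of the 25 genes without overlap, against 15.8% of all genes. In KO the medians of the 2 lists were 0.02 and 0.06.

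Of 25 genes of glucose sensing and insulin release, 23 were lower, the median was −0.15 and 0 passed. The groups did not overlap in 8, against 15.8% of all genes, and 3 lower genes and 1 higher reached an unadjusted p under 0.05, against 7.22% and 3.91% of all genes. Adcy5, an adenylate cyclase that couples glucose to cAMP in β-cells, read 7.46, 7.47 and 7.77 on the normal diet and 6.87, 6.84 and 6.61 on the high-fat diet, a difference of −0.79 (SE 0.14, adjusted p = 0.0839). Its 3 further probe sets, between 6.16 and 6.55 on average, differed by −0.03 to 0.06. Unc13a, a priming factor of exocytosis, differed by 0.28 (adjusted p = 0.212), Syt7, a calcium sensor of granule release, by −0.17 (adjusted p = 0.411) and Rims2 by −0.19 (adjusted p = 0.430). In KO 11 of the 25 genes were higher, with a median of −0.01.

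Of 18 β-cell transcription factors, 11 were lower, the median was −0.06 and 0 passed. The groups did not overlap in 6, against 15.8% of all genes. An unadjusted limma p under 0.05 was reached by 5 lower genes and 1 higher, against 7.2% and 3.9% of all genes. Pdx1, the factor that maintains β-cell identity and insulin transcription, read 12.40, 12.29 and 12.52 against 12.15, 12.22 and 12.14, a difference of −0.23 (SE 0.08, adjusted p = 0.289) without overlap. Mnx1 differed by −0.49 (adjusted p = 0.182), Hnf4a by −0.22 (adjusted p = 0.307) and the orphan receptor gene Nr4a3 by 0.70 (adjusted p = 0.212). The hormone genes were level: Ins2 differed by 0.02, Iapp (amylin) by 0.01, Gcg by −0.06, Sst by 0.02 and Ppy by −0.06, each with an SE between 0.06 and 0.10. The glucose transporter gene Slc2a2 differed by −0.10 and G6pc2, of β-cell glucose-6-phosphatase, by 0.07. The 20 genes of granules and hormone processing split into 10 higher and 10 lower.

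Prolactin and serotonin signals drive β-cell growth in pregnancy. Of 20 genes of this axis, 4 were higher, against 44.6% of all genes, with a median of −0.14 and 8 without overlap, against 15.8%. The prolactin receptor gene Prlr and the tryptophan hydroxylase gene Tph1 are on the list but were not tested. Tph2, a tryptophan hydroxylase of serotonin synthesis, read 7.69, 7.24 and 7.86 on the normal diet and 6.95, 6.40 and 6.02 on the high-fat diet, a difference of −1.14 (SE 0.28, adjusted p = 0.174), against −0.01 in KO. Matn2, a matrix protein raised by prolactin in islets, differed by −0.57 in WT (adjusted p = 0.216) and by −0.52 in KO. Stat5a, the factor that carries the prolactin signal to the nucleus, differed by −0.23 (adjusted p = 0.287) and Socs3, its feedback inhibitor, by −0.28 (adjusted p = 0.458), against −0.09 and 0.12 in KO.

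DNA replication and mitosis had 29 of 41 genes higher and a median of 0.13, but the list was high on WT normal array 1 (0.43, against −0.35 and −0.32 on WT normal arrays 2 and 3); without that array the median was 0.35, and without WT normal array 2 it was −0.02. In KO 37 of the 41 genes were higher, with a median of 0.51, and their mean deviation ranged from −0.36 to −0.21 on the normal diet and from −0.09 to 0.89 for the high-fat arrays. Mcm4, a subunit of the replicative helicase, differed by −0.41 (adjusted p = 0.183). Cdkn1a (p21), an inhibitor of cyclin-dependent kinases, read 10.47, 10.44 and 10.02 on the normal diet and 11.32, 11.10 and 10.75 on the high-fat diet, a difference of 0.75 (SE 0.15, adjusted p = 0.122). Cdkn1c (p57), another inhibitor, read 7.55, 7.23 and 7.25 against 6.65, 7.08 and 6.67, a difference of −0.54 (SE 0.13, adjusted p = 0.172). Neither gene overlapped between the diets, and the 2 inhibitors lay on opposite sides. They were the only 2 of the 17 genes of their list without overlap, against 15.8% of all genes. Of the 17 G1 cyclins and inhibitors, 6 were higher, with a median of −0.07, which became 0.01 without WT normal array 1, and in KO 14 were higher, with a median of 0.09.

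In the lists of cholesterol, fatty acid and sphingolipid genes, the largest difference was that of Ppargc1a, the coactivator PGC-1α that drives mitochondrial biogenesis and fatty acid oxidation. It read 7.26, 7.58 and 8.0 on the normal diet and 8.83, 9.23 and 8.52 on the high-fat diet, a difference of 1.25 (SE 0.23, 2.37-fold, adjusted p = 0.101). Its 4 further probe sets were higher by 0.76 to 1.18, and 1 of them passed when every probe set was tested (1.18, SE 0.14, adjusted p = 0.0294). Of the other 27 oxidation genes and PPAR targets, 8 were higher, and the median of the whole list, Ppargc1a included, was −0.03. Oxidative phosphorylation had 12 of 33 higher and a median of −0.02, which was 0.02 without WT high-fat array 2.

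Fatty acid synthesis and desaturation held differences of both signs. Scd1, which introduces a double bond into saturated fatty acids, read 10.97, 11.42 and 11.52 on the normal diet and 10.70, 10.71 and 10.25 on the high-fat diet, a difference of −0.75 (SE 0.21, adjusted p = 0.216). Fads2, the Δ6-desaturase, differed by −0.57 (adjusted p = 0.212) and Scd2 by −0.25 (adjusted p = 0.279), while Lpin1, a phosphatidate phosphatase, differed by 0.38 (adjusted p = 0.139). None of these 4 genes, which have the smallest p of the list, overlapped between the diets. Over the list the groups did not overlap in 6 of 21 genes, against 15.8% of all genes. Of the 21 genes 0 passed, and the list's median was −0.06. Leaving out WT high-fat array 2 brought that median to 0.00, and leaving out array 1 of the same group to −0.13. In KO, Scd1 differed by −0.55, Fads2 by −0.43, Scd2 by −0.05 and Lpin1 by 0.24. Cholesterol synthesis had 13 of 20 genes higher and a median of 0.06, with Lss, the lanosterol synthase, at 0.40 (adjusted p = 0.337).

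In sphingolipid and S1P metabolism, 13 of 33 genes were higher and the median was −0.04. Sgpp2 itself read 11.55, 11.51 and 11.63 on the normal diet and 11.48, 11.46 and 11.57 on the high-fat diet, with overlapping arrays and a difference of −0.06 (SE 0.07, adjusted p = 0.828). Its probe set still read between 10.99 and 11.17 on the KO arrays. It thus follows the loss of the gene only in part, and its level reading in WT is a weak measure of Sgpp2. Fa2h, which hydroxylates the fatty acid of sphingolipids, read 6.31, 5.79 and 6.08 against 5.30, 5.18 and 5.26, a difference of −0.81 (adjusted p = 0.120). The receptors lay on both sides, with S1pr1 at 0.45 (adjusted p = 0.284) and S1pr3 at −0.65 (adjusted p = 0.381). Cers6, a ceramide synthase, differed by 0.24 (adjusted p = 0.376).

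Matrix genes were lower together with markers of stromal and glial cells. Of 30 extracellular matrix genes, 26 were lower, with a median of −0.27; 11 lower genes and 1 higher reached an unadjusted p under 0.05, against 7.22% and 3.91% of all genes, and the groups did not overlap in 8, against 15.8%. Col6a3, a chain of collagen VI, read 10.15, 9.65 and 9.86 on the normal diet and 8.89, 8.17 and 9.55 on the high-fat diet, a difference of −1.01 (SE 0.28, adjusted p = 0.212). The protease gene Mmp14 differed by −0.51 (adjusted p = 0.182) and Thbs1 (thrombospondin 1) by 0.91 (adjusted p = 0.207). Of 12 fibroblast and stellate cell markers, 10 were lower with a median of −0.32. Their mean deviation ranged from −0.14 to 0.42 on the normal diet and, for the high-fat arrays, from −0.40 to −0.02. Col1a1 read 11.05, 11.11 and 11.13 against 10.62, 10.40 and 9.31, a difference of −0.98 (adjusted p = 0.319).

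All 7 Schwann and glial cell markers tested were lower, with a median of −0.28, and their mean deviation was 0.70 on WT normal array 3 against −0.33 to 0.03 on the other 5 arrays. Sox10, the master factor of glia, read 7.80 on that array, 6.28 and 6.86 on the other normal-diet arrays and 6.00 to 6.34 on the high-fat diet. Without WT normal array 3 the medians were −0.16 for matrix, −0.15 for fibroblast markers and −0.15 for glial markers, and without WT normal array 2, the lowest of its group, −0.41, −0.57 and −0.59. The part of stromal and glial cell number in the matrix values was not tested. The neuropeptide gene Npy, from the granule list, was high on WT normal array 3 as well (12.59, against 11.20 and 11.32 on the other normal-diet arrays and 10.50 to 10.81 on the high-fat diet) and differed by −1.01 (adjusted p = 0.337).

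**Figure D4:**
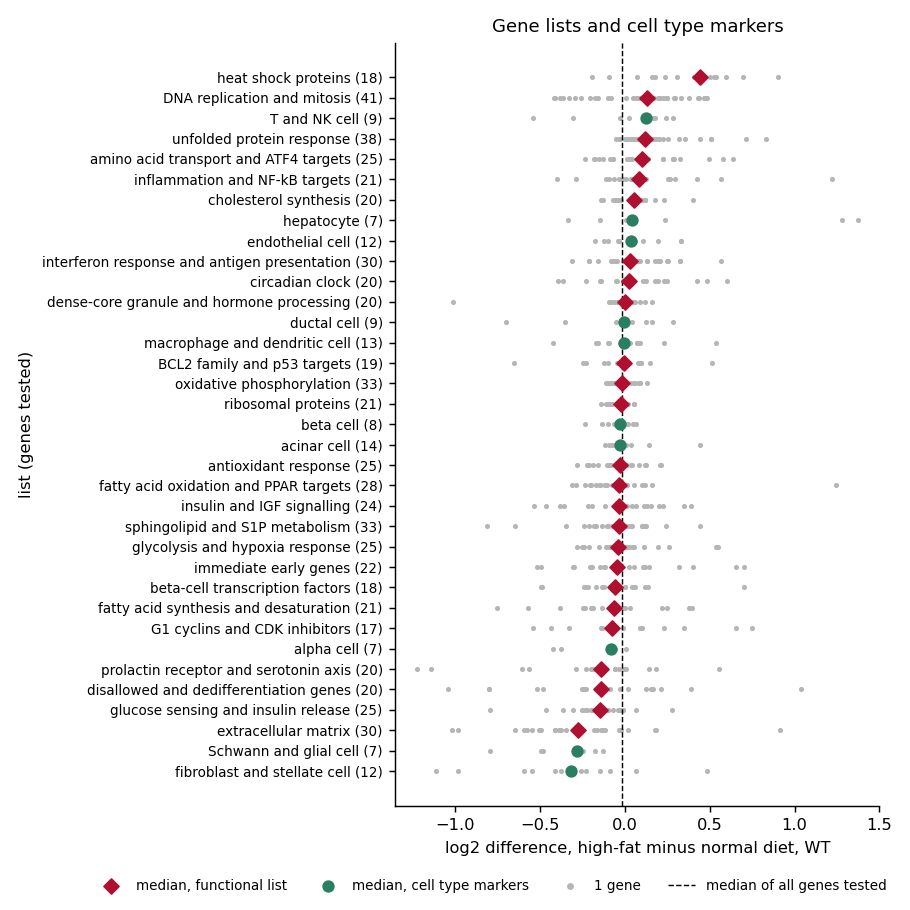
Each grey dot is the log2 difference between the diets in WT of 1 gene (horizontal axis) in a list (rows, with the number of genes tested), and the large symbols are list medians, diamonds for functional lists and circles for cell type markers with at least 7 genes tested. Heat shock proteins have the highest median, 0.44, and fibroblast and stellate markers the lowest drawn, −0.32; the Reg family, with −1.37, lies outside the axis and is left out.

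The remaining functional lists had medians between −0.14 and 0.08. In inflammation and NF-kB targets 14 of 21 genes were higher with a median of 0.08, and the chemokine gene Ccl5 differed by 1.22 (adjusted p = 0.319) with overlapping arrays. Interferon response and antigen presentation had 18 of 30 higher and a median of 0.03, immediate early genes 9 of 22 and −0.05, antioxidant genes 9 of 25 and −0.03, glycolysis and hypoxia 11 of 25 and −0.04, insulin and IGF signalling 10 of 24 and −0.03, and BCL2 family and p53 targets 9 of 19 and −0.01. Genes normally silenced in β-cells and dedifferentiation markers had 7 of 20 higher and a median of −0.14, which was −0.05 without WT normal array 3. Ribosomal protein genes had 5 of 21 higher and a median of −0.02. None of these genes passed. Leaving out 1 array moved several of these medians: inflammation lay between 0.02 (without WT high-fat array 1) and 0.15 (without WT normal array 3), interferon response between −0.03 (again without WT high-fat array 1) and 0.15 (leaving out array 3 of that group), and the signs of immediate early genes, glycolysis and hypoxia, insulin and IGF signalling, and BCL2 family and p53 targets also turned.

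Of 20 circadian clock genes, 12 were higher and the median was 0.03, which was −0.02 without WT high-fat array 3 and 0.14 when array 1 of that group was left out. Cry2, a repressor of the clock, read 11.12, 11.47 and 10.91 against 11.96, 11.59 and 11.76 and differed by 0.60 (SE 0.15, adjusted p = 0.182). Ciart, another repressor, differed by 0.49 (adjusted p = 0.260). The other 18 ranged from −0.40 (Dbp) to 0.43 (Per1) with overlapping groups except for Csnk1d, which differed by −0.05. Groups without overlap were thus found in 3 of the 20 genes, near the 15.8% of all genes. The hour at which tissue was taken is not given in the labels.

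Set beside KO, where the same diets were compared on arrays that WT does not share, the differences were related across genes but smaller for the 12 called genes. Over 15237 genes the 2 sets of differences correlated with r = 0.418 (rank correlation 0.304), a description across genes, which are not independent replicates. Of the 1695 genes with an unadjusted p under 0.05 in WT, 72.4% had the same sign in KO, against 59.9% of all genes. Of the 12 called genes, 11 had the same sign. Their median size was 0.88 in WT and 0.37 in KO along the WT direction, but they were chosen for their size in WT, so this gap is only a description.

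Reg2 read 13.37, 12.64 and 11.19 on the KO normal arrays and 11.69, 10.09 and 10.44 on the KO high-fat arrays, which overlap, with a difference of −1.66 (SE 0.63). Slc10a6 differed by 0.78 in KO, Rasgrp1 by −0.78 and Tesc by −0.48. Hmgb3 was level in KO (−0.004) and Haus1 differed by 0.08 (SE 0.08). On the KO normal arrays Hmgb3 read 8.53 to 8.76, against 9.01 to 9.33 in WT normal and 8.16 to 8.58 in WT high-fat arrays. Haus1 read 9.20 to 9.31 there, against 9.64 to 9.80 in WT normal and 9.0 to 9.22 in WT high-fat arrays. By contrast, Higd1a read 10.58 to 10.82 on the KO normal arrays, within the WT normal range of 10.56 to 10.87. In KO alone 0 genes passed limma's threshold, with 1173 at an unadjusted p under 0.05 and a smallest adjusted p of 0.306. The test of the difference itself, diet by genotype, also called 0 genes, with 758 at an unadjusted p under 0.05 and a smallest adjusted p of 0.722. None of the WT differences was therefore shown to differ from that in KO.

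**Figure D5:**
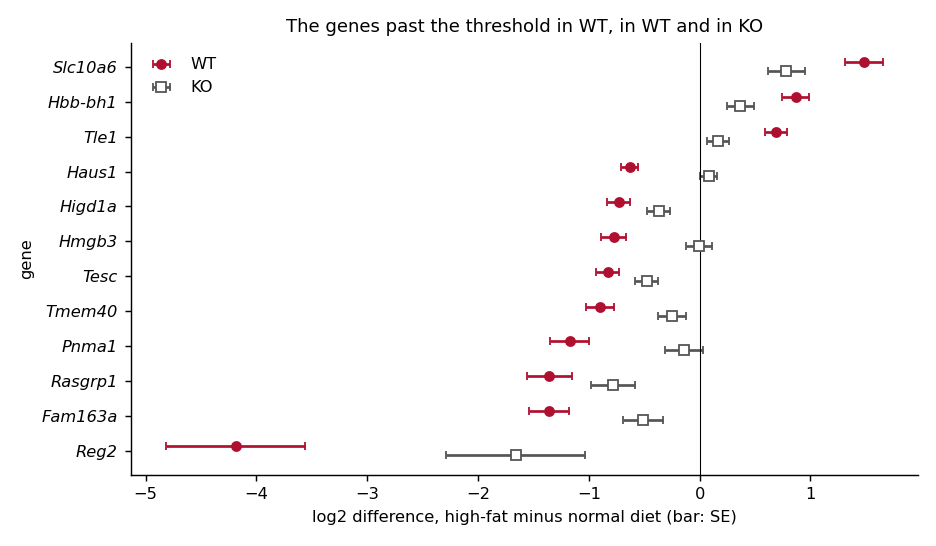
Log2 difference between the high-fat and the normal diet (horizontal axis, bars are SE) for the 12 genes called in WT (rows), with WT as filled circles and KO as open squares. The KO value lies on the same side of 0 for 11 genes, and Haus1 is the exception.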

How the data were processed

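RNA of 12 samples was hybridised to Affymetrix mouse expression arrays, 1 array per sample. The deposited table holds the authors' log2 values, made by RMA, with Partek 6.6 also named, per the submitters' processing notes; its options are not given in these sources. RMA sets all arrays to a common distribution, so an overall rise or fall in RNA would not show. Of 45101 probe sets, 34945 pair with 1 gene symbol in the platform table, 932 with several, and 9160 with none, beside 64 controls; genes were read from the first kind, through their brightest probe set on average over the 12 arrays. The depth of an array is not a count, and precision is limited by 3 arrays per group (median SE 0.12).

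The deposited log2 values were fitted with limma 3.58.1 in R 4.3.3 (lmFit and eBayes, 1 coefficient per group, 12 arrays), after a filter of log2 5 on at least 3 arrays, with Benjamini-Hochberg adjustment over 15237 genes and a threshold of 0.05. Alternatives were the 6 WT arrays alone, the replicate number as a block, other filters (6 or none), cyclic loess, median centring, averaging all probe sets of a gene, trend and robust eBayes, array weights, and leaving out each array; every probe set was added after seeing the data. Named are the 15 largest rises and falls past the threshold without overlap, made up to 10 per direction by p, up to 4 members of each of 26 functional and 19 marker lists by call and then p, all clock genes, Sgpp2 and the hormones; other genes were chosen after their values were seen. The comparison and the lists were chosen with earlier results of these data known. Promoter windows (250 bases before to 50 after the start) come from RefSeq, GRCm38.p6, and motifs were searched in Python 3.11.15; figures used matplotlib 3.10.9. Genes without a row in the platform table, such as Ins1 and Mafa, are not analysed here. The sample labels name no batch; running numbers in them put the normal-diet arrays before the high-fat arrays, so any handling order and diet cannot be told apart.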

Additional observations from a re-analysis of the deposited data

Results flagged for a closer look

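Signals outside the gene comparison came from probe sets that do not pair with 1 gene symbol in the platform table. Of these, 5 passed limma's adjusted threshold when all 45037 probe sets were tested, an analysis added after seeing the data. Probe set 1459557_at read 4.46, 5.13 and 4.71 on the WT normal arrays and 6.63, 6.17 and 6.61 on the WT high-fat arrays, a difference of 1.70 (adjusted p = 0.00921), against 0.37 in KO. Probe set 1442984_at read 5.01, 4.70 and 4.61 against 6.13, 5.97 and 6.05, a difference of 1.27 (adjusted p = 0.00921), against 0.85 in KO. These 2 had the smallest adjusted p of the 19 probe sets called. Probe set 1446651_at differed by 0.91 (adjusted p = 0.0224) and probe set 1432811_at by 0.57 (adjusted p = 0.0482), the first with normal-diet values under the filter of log2 5 and the second with all its values on the 12 arrays under it. Probe set 1431656_at was lower by its difference of −0.99 (adjusted p = 0.0482), from 7.40 to 7.63 on the normal diet to 6.32 to 6.83 on the high-fat diet. In each of the 5 the diets did not overlap in WT, as in 15.8% of all genes tested. Since the 5 were chosen by their adjusted p, this follows largely from the choice.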

How the results depend on the processing

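The count of 12 called genes (3 higher, 9 lower) depended on the processing. It was 1 (1 higher, 0 lower) with the 6 WT arrays alone, with 1561 genes at an unadjusted p under 0.05; 0 (0 higher, 0 lower) with the replicate block, with 1590; 18 (4 higher, 14 lower) with cyclic loess; 15 (7 higher, 8 lower) after averaging all probe sets of a gene; 17 (9 higher, 8 lower) with array weights; and 24 (10 higher, 14 lower) with trend and robust eBayes. Testing every probe set, added after seeing the data, called 19 (9 higher, 10 lower). The stricter filter gave 11 (2 higher, 9 lower), and no filter or median centring 12. Leaving out 1 array gave 0 to 2 calls, 0 to 2 higher and 0 to 1 lower, with 1244 to 1964 genes at an unadjusted p under 0.05: 2 without WT normal array 2 or WT high-fat array 3, and 0 without each of the other 4. The cause of these changes was not tested. Of 179 values of the 12 genes under the alternatives, 79 kept their call, 100 lost it and 0 reversed. Among 195 named genes without a call, 57 of 2910 values changed sign, in 29 genes, and 10 genes gained a call in 21 values, among them Hsph1, Herpud1 and Ppargc1a. Deviations of same-numbered WT arrays correlated with r = 0.052, 0.099 and −0.156, and those of differently numbered arrays with r between −0.221 and 0.189. So few values cannot tell whether the replicate numbers stand for a pairing or a batch, and the labels do not say. Diet by genotype called 0 genes in each alternative run for it. Genes near log2 5, such as Slc10a6 and Ms4a1, lie close to the level at which probes no longer separate signal from background, and genes near the top of the scale, such as Ins2, may be compressed.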

Other observations

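The 3 neuropeptide genes Vip, Tac1 and Grp, chosen after their low values on the high-fat diet were seen, did not pass limma's test over all genes. Of other peptide genes, Npy differed by −1.01 in WT and by −0.98 in KO, while Sst (0.02) and Pyy (−0.05) were level in WT. Vip, a peptide of nerve fibres that reach islets, read 11.73, 11.25 and 12.98 on the WT normal arrays and 10.29, 10.21 and 8.06 on the WT high-fat arrays, a difference of −2.47 (adjusted p = 0.212), against −2.11 in KO. Tac1, the precursor of substance P, differed by −2.78 (adjusted p = 0.212), against −2.32 in KO. Grp, gastrin-releasing peptide, read 8.16, 7.09 and 10.60 against 4.70, 5.43 and 4.16, a difference of −3.86 (SE 1.20, adjusted p = 0.257). The diets did not overlap in WT for these 3 genes, as in 15.8% of all genes. Since the 3 were chosen for their low values on the high-fat diet, this follows largely from the choice. WT normal array 3, which also had the highest glial markers and Reg values, was the highest of the 6 for each of them, and WT high-fat array 3 the lowest.

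Genes typical of small intestinal absorptive cells were high on some arrays and not on others. Apoa4, an apolipoprotein of chylomicrons, read 7.63, 8.25 and 7.76 on the WT normal arrays and 11.69, 8.54 and 9.79 on the WT high-fat arrays, a difference of 2.13 (adjusted p = 0.292). Lct, the lactase gene, read 9.92 on WT high-fat array 1 and 7.77 on array 3, against 6.17 on array 2 and 5.81 to 6.17 on the normal diet. Fabp1 read 12.32 and 10.73 on WT high-fat arrays 1 and 3, against 9.60 on array 2 and 8.65 to 9.89 on the normal diet. A single KO normal array shared the pattern, with 9.91 for Apoa4 and 8.04 for Lct on KO normal array 1, against 7.41 to 8.16 and 5.92 to 5.96 on the other KO normal arrays. The part of tissue adhering to the islets in these values was not tested.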
